A study of Mus musculus and Homo sapiens with 11 samples.

Results

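The 10 genes described here encode transcription factors of the epithelial-mesenchymal transition (EMT), taken as the rows of the mouse expression table with the symbols Zeb1, Zeb2, Snai1, Snai2, Twist1, Twist2, Prrx1, Foxc2, Ovol1 and Grhl2. All 10 were among the 24062 genes listed. Of these, 8 are known as drivers of the transition, and Ovol1 and Grhl2 are known to keep cells epithelial. In EMT, epithelial cells loosen their junctions and take on the shape, filaments and matrix genes of mesenchymal cells. Zeb, Snail and Twist family proteins bind E-box sequences of epithelial genes such as the E-cadherin gene Cdh1 and repress them together with corepressors, while microRNAs of the miR-200 family repress Zeb1 and Zeb2 and are themselves repressed by Zeb proteins. In mammary tumours these factors are known for their part in invasion and dissemination, and the reverse change, towards an epithelial state, is known from growth at distant sites.

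The libraries were made from polyadenylated RNA of the mouse breast cancer cell line MMTV-ErbB2, which takes its name from tumours in which the mouse mammary tumour virus promoter drives the receptor tyrosine kinase gene ErbB2. The groups were 3 libraries of its brain metastatic derivative, called BrM 2a, and 3 libraries of the parental line. Both groups share the ErbB2 origin, and 1 derivative was compared. The labels name media based on DMEM or RPMI, growth to 80% confluence, and the kits TruSeq RNA v2 or NEBNext Ultra without tying any of them to a library, so an effect of medium or kit and the difference between the lines cannot be told apart. The labels do not state that the replicates were separate cultures, and the p-values here take their error from libraries whose spread may be technical. In bulk RNA, fewer cells of a type and less RNA per cell cannot be told apart.

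Reads assigned to genes numbered between 29877087 and 39106969 in the BrM 2a libraries and between 39304974 and 46683735 in the parental libraries. BrM 2a replicate 1 stood apart from its group. It differed by at least 2-fold from replicates 2 and 3 at 3614 and 3654 tested genes, against 220 genes between replicates 2 and 3, and parental libraries differed from each other at 976 to 1683 genes. Mammary epithelial markers (Krt8, Krt18, Epcam, Cdh1 and Erbb2) summed to 185726 to 221896 in BrM 2a libraries and 127868 to 138723 in parental libraries. Of the 5, 2 rose and 1, Cdh1, fell, where 12.2% of all tested genes were called higher and 15.8% lower. Levels throughout are scaled read counts, the authors' normalised counts per gene, and groups are given as mean ± SD (n = 3 each). Fold changes are differences of group means of log2(scaled read count + 1), BrM 2a minus parental, from limma, with p-values adjusted by Benjamini-Hochberg over the 13821 genes whose mean reached 10, and a threshold of 0.05.

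The comparison asked how the EMT factors differed between the brain metastatic derivative and its parental line. Of the 8 drivers, 6 fell in BrM 2a cells (Zeb1, Zeb2, Snai2, Twist2, Prrx1 and Foxc2). Each of their estimates was at least 8-fold lower, and Snai1 and Twist1 did not pass the test. Of the pair that keeps the epithelial state, Ovol1 rose and Grhl2 did not pass. Over all tested genes, 28.1% were called in either direction, 15.8% were called lower, 12.2% were called higher, and 4.94% were called lower by at least 8-fold. The median log2 fold change was -3.34 over the 8 drivers and -0.05 over all tested genes. The libraries of both groups did not overlap for 8 of the 10 factors, and for 48% of all tested genes. All 10 factors passed the filter on low levels. Foxc2 and Twist2 were under 10 in each BrM 2a library and passed through their parental levels. Without BrM 2a replicate 1, 8 factors were called in place of 7, because Grhl2 then passed. Calls over the whole table rose as well, from 3881 of 13821 genes to 6465 of 13664.

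**Figure D1:**
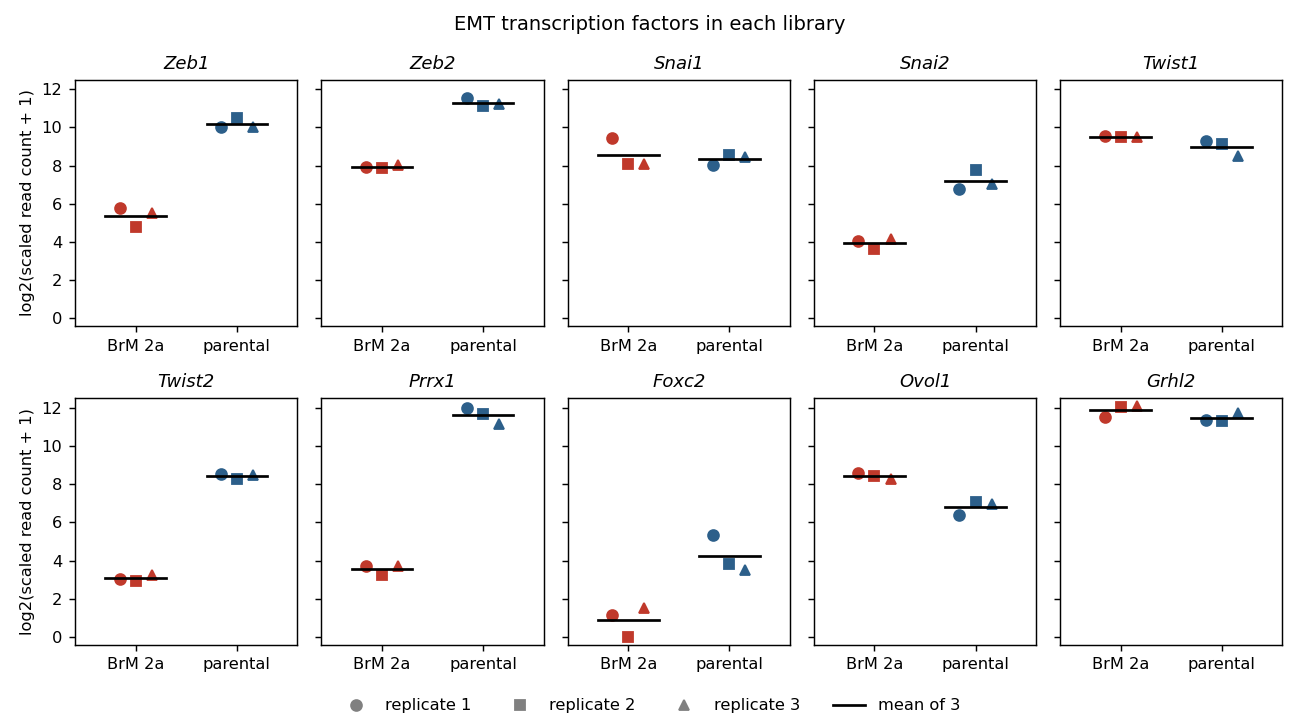
Level of each of the 10 factors in every library, as log2(scaled read count + 1), with BrM 2a on the left and parental on the right of each panel; marker shapes are replicates and bars are means of 3 libraries. Prrx1, Twist2, Zeb1, Zeb2, Snai2 and Foxc2 sit lower in all BrM 2a libraries, Ovol1 sits higher in all of them, and Snai1 and Grhl2 overlap.

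Prrx1, a homeobox factor of mesenchymal tissues, had the largest difference of the 10. It had 12.2, 8.61 and 12.1 scaled read counts in BrM 2a libraries, against 4119, 3229 and 2291 in parental libraries. Every BrM 2a library was thus close to the lower limit of counting, and the groups were far apart. The limma log2 fold change was -8.04 ± 0.30 (SE), a 264-fold lower level in BrM 2a cells (adjusted p = 6.66e-05). This rests on 32 reads in all BrM 2a libraries and 10394 reads in all parental libraries, and with a pseudocount of 10 the level was 149.9-fold lower. Among all tested genes its log2 fold change was the 75th lowest. Prrx1 lies on chromosome 1 of GRCm38 from 163245119 to 163313710 on the minus strand (GENCODE M21).

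Twist2, a basic helix-loop-helix factor known in dermis and mesenchyme, had 7.32, 6.70 and 8.38 scaled read counts in BrM 2a libraries, against 367, 311 and 351 in parental libraries. Levels within each group were close together and the groups did not overlap. The level was 40.7-fold lower in BrM 2a cells (limma log2 fold change -5.35 ± 0.28 SE, adjusted p = 0.000123), from 22 reads in BrM 2a and 1110 reads in parental libraries. With a pseudocount of 10 it was 20.2-fold lower. Its gene lies on chromosome 1 from 91801461 to 91848028 on the plus strand. Its paralogue Twist1 is known as an inducer of EMT in mammary cells and was abundant in both lines. Twist1 had 753, 732 and 719 scaled read counts in BrM 2a libraries, against 616, 571 and 358 in parental libraries. All BrM 2a libraries were above all parental ones, but the difference did not pass (limma log2 fold change 0.55, 95% interval -0.03 to 1.13, adjusted p = 0.138). Twist1 lies on chromosome 12 from 33957671 to 33959829 on the plus strand.

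Zeb1, a zinc finger and homeobox repressor of epithelial genes, had 53.7, 26.8 and 44.7 scaled read counts in BrM 2a libraries, against 1046, 1443 and 1039 in parental libraries. No BrM 2a library came near a parental one. The level was 28.3-fold lower in BrM 2a cells (limma log2 fold change -4.82 ± 0.32 SE, adjusted p = 0.000256). Its paralogue Zeb2 had 239, 236 and 258 scaled read counts in BrM 2a libraries, against 3001, 2247 and 2380.4 in parental libraries. Zeb2 was even across the BrM 2a libraries and stayed well above the counting limit there. Its level was 10.3-fold lower in BrM 2a cells (limma log2 fold change -3.36 ± 0.17 SE, adjusted p = 0.000121). Zeb2 lies on chromosome 2 from 44983632 to 45117395 on the minus strand. Its exons share 653 bases with the antisense gene Zeb2os, and whether reads were counted by strand is not given in the sources used here, so reads of the pair cannot be told apart in those bases. Zeb2os itself had 21.3 ± 9.54 scaled read counts in BrM 2a cells and 64.8 ± 19.97 in parental cells, far under the level of Zeb2. Exons of Zeb1, Twist2, Ovol1 and Grhl2 also overlap annotated genes on the other strand, none of which was tested.

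Snai2 (Slug), a zinc finger repressor known from basal mammary cells, had 15.9, 11.5 and 16.8 scaled read counts in BrM 2a libraries, against 109, 217 and 129 in parental libraries. The groups did not overlap. Its level was 9.42-fold lower in BrM 2a cells (limma log2 fold change -3.24 ± 0.38 SE, adjusted p = 0.00183). With a pseudocount of 10 the log2 fold change of Snai2 was -2.66. Snai2 lies on chromosome 16 from 14705852 to 14709385 on the plus strand. Snai1 (Snail), the founding member of that family, had 709, 275 and 275 scaled read counts in BrM 2a libraries, against 264, 373 and 350.3 in parental libraries. The first BrM 2a library held the highest Snai1 level of all and the other BrM 2a libraries lay within the parental range. The difference did not pass (limma log2 fold change 0.21, 95% interval -0.78 to 1.20, adjusted p = 0.738), and without BrM 2a replicate 1 it was -0.24 (adjusted p = 0.368). Snai1 lies on chromosome 2 from 167538195 to 167542814 on the plus strand.

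Foxc2, a forkhead factor of mesoderm and lymphatic vessels, was scarce in both lines. It had 1.22, 0 and 1.86 scaled read counts in BrM 2a libraries, against 38.7, 13.2 and 10.4 in parental libraries. These are 3 reads in all BrM 2a libraries and 65 reads in all parental libraries, a ratio of pooled reads of 19.6 (exact 95% interval 6.40 to 97.3, counting error only). It passed the test (limma log2 fold change -3.33 ± 0.68 SE, adjusted p = 0.0141). Its log2 fold change was -1.37 with a pseudocount of 10, -4.17 in edgeR and -4.32 in DESeq2. Its mean over all libraries, 10.9, was only just above the filter, and without parental replicate 1 it fell under the filter and was not tested. Foxc2 lies on chromosome 8 from 121116171 to 121118895 on the plus strand.

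Among the factors that keep the epithelial state, Ovol1, a zinc finger repressor of mesenchymal programmes, had 383, 338 and 309 scaled read counts in BrM 2a libraries, against 82.4, 131 and 123 in parental libraries. The groups did not overlap, and Ovol1 was 3.09-fold higher in BrM 2a cells (limma log2 fold change 1.63 ± 0.27 SE, adjusted p = 0.00611). Grhl2, a grainyhead factor that activates junction genes, was abundant in both lines. It had 2966, 4201 and 4373 scaled read counts in BrM 2a libraries, against 2612, 2572 and 3343 in parental libraries. BrM 2a replicate 1 lay inside the parental range, and the difference did not pass (limma log2 fold change 0.43, 95% interval -0.05 to 0.90, adjusted p = 0.157). Without that library Grhl2 was 1.52-fold higher in BrM 2a cells and passed (limma adjusted p = 0.016). Ovol1 lies on chromosome 19 from 5549136 to 5560646 on the minus strand and Grhl2 on chromosome 15 from 37233036 to 37363569 on the plus strand.

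**Figure D2:**
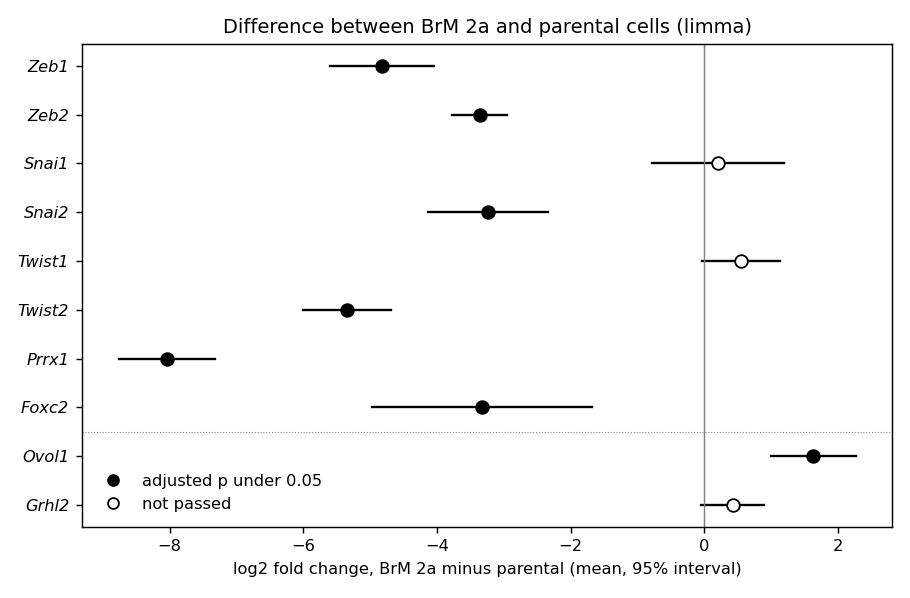
Log2 fold change of each factor, BrM 2a minus parental, with its 95% interval from limma; filled points had an adjusted p under 0.05. The intervals of Snai1 (-0.78 to 1.20), Twist1 (-0.03 to 1.13) and Grhl2 (-0.05 to 0.90) include 0, and Prrx1 (-8.04) stands lowest.

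Levels of different genes were compared per kilobase of exon length, taken as all annotated exons of a gene merged over its transcripts. This length was 19942 bases for Zeb2, 11066 for Prrx1, 10266 for Zeb1 and 1628 for Twist1. It can exceed the length of the expressed transcript and so lower the level per kilobase. The order of the genes depends on this choice, and other lengths were not tested. In BrM 2a cells Twist1 was at 451 ± 10.6 scaled read counts per kilobase, Grhl2 at 447 ± 89.1, Snai1 at 259 ± 155 and Ovol1 at 98.4 ± 10.7. Twist1 and Grhl2 did not differ beyond their spread there. In the same cells Zeb2 was at 12.3 ± 0.590 scaled read counts per kilobase, Snai2 at 7.28 ± 1.40, Zeb1 at 4.06 ± 1.34, Twist2 at 2.35 ± 0.269, Prrx1 at 0.992 ± 0.185 and Foxc2 at 0.377 ± 0.347. A gap thus lay between Ovol1 and Zeb2, with 4 factors above it and 6 below. In parental cells Grhl2 (330.0 ± 50.4), Twist1 (316 ± 84.6), Prrx1 (290.3 ± 82.6) and Snai1 (203 ± 35.7) had the highest levels per kilobase, and the first 3 of these lay within each other's spread. There followed Zeb2 (128 ± 20.2), Zeb1 (115 ± 22.5), Twist2 (108 ± 9.23), Snai2 (75.2 ± 28.5), Ovol1 (32.1 ± 7.45) and Foxc2 (7.61 ± 5.72). There Zeb2 and Zeb1 lay within each other's spread, as did Zeb1 and Twist2.

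As a share of the summed level per exon length of the 8 drivers, Twist1 made up 62.9% (range 49.8 to 70.0) in BrM 2a libraries and 25.1% (21.1 to 28.0) in parental libraries. Snai1 made up 33.3% (26.4 to 47.1) in BrM 2a libraries and 16.7% (12.1 to 20.7) in parental libraries. By this measure driver transcripts of BrM 2a cells were mostly Twist1 and Snai1, while those of parental cells were spread over 7 genes. Prrx1 made up 0.137% in BrM 2a libraries and 23.1% in parental libraries. Zeb2 made up 1.72% in BrM 2a libraries and 10.3% in parental libraries. Zeb1 made up 0.55% in BrM 2a libraries and 9.26% in parental libraries. Twist2 made up 0.33% in BrM 2a libraries and 8.84% in parental libraries. Snai2 made up 1.01% in BrM 2a libraries and 6.06% in parental libraries. These shares are a description, since a share moves when any of the other 7 genes moves. They also rest on the merged exon lengths.

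**Figure D3:**
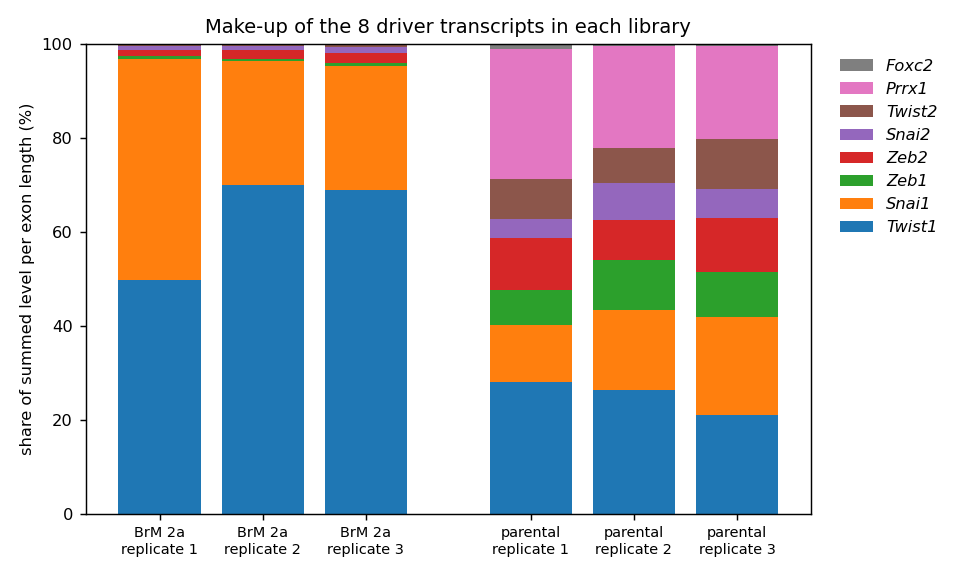
Share of each of the 8 drivers in their summed level per exon length, in percent, 1 bar per library with BrM 2a libraries on the left. Twist1 and Snai1 fill most of the BrM 2a bars, and Prrx1, Zeb1, Zeb2, Twist2 and Snai2 are visible parts of the parental bars.

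Unequal change within a pair of paralogues was measured as the log2 ratio of their levels in each library. The log2 ratio of Twist2 over Twist1 was -6.50, -6.57 and -6.26 in BrM 2a libraries, against -0.74, -0.88 and -0.03 in parental libraries, a difference of -5.90. For Snai2 over Snai1 the log2 ratio was -5.40, -4.46 and -3.96 in BrM 2a libraries, against -1.27, -0.78 and -1.43 in parental libraries, a difference of -3.45. In both pairs the ratio was lower in every BrM 2a library than in any parental one. For Zeb2 over Zeb1 the log2 ratio was 2.13, 3.09 and 2.50 in BrM 2a libraries, against 1.52, 0.64 and 1.20 in parental libraries, a difference of 1.46, and here every BrM 2a library was higher. Each of these 3 differences had p = 0.1 in a two-sided exact permutation test (adjusted p = 0.1 over the 3 ratios), which is the smallest p that 3 against 3 libraries allow and does not reach 0.05. A ratio shows unequal change and not which paralogue changed.

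**Figure D4:**
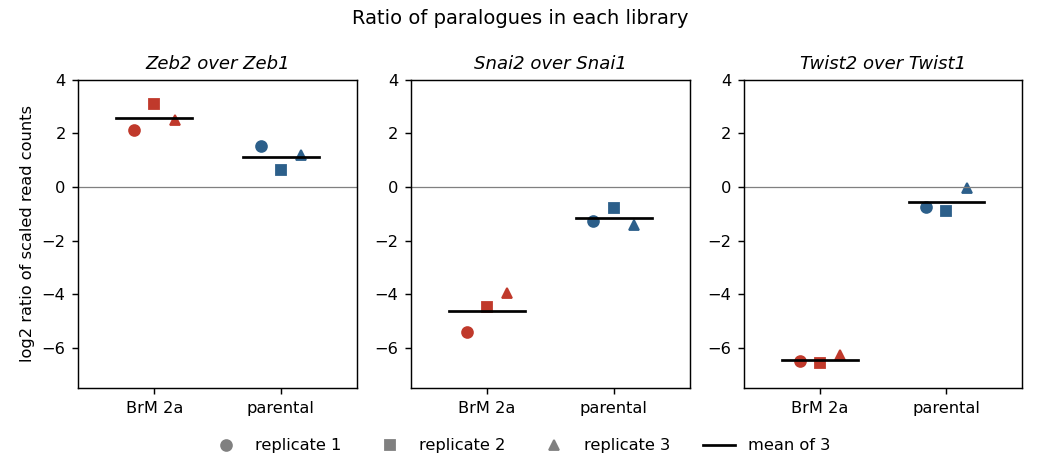
Log2 ratio of scaled read counts of paralogues in every library, BrM 2a on the left and parental on the right of each panel; marker shapes are replicates and bars are means of 3 libraries. Differences of group means were 1.46 for Zeb2 over Zeb1, -3.45 for Snai2 over Snai1 and -5.90 for Twist2 over Twist1.

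Promoters are printed for 3 factors that fell together and for Twist1, which did not pass, so that the paralogues Twist2 and Twist1 can be read side by side. The RefSeq promoter table for GRCm38.p6 matched 5 of the 10 factors (Zeb2, Snai1, Twist1, Twist2 and Prrx1). Each line gives the 250 bases before the gene's RefSeq start, 5′ to 3′ on the gene's strand, with CpG dinucleotides in capitals. Zeb2 has 4 starts in that table, and the most upstream is shown. That start lies 47 bases before the GENCODE gene, and the RefSeq start of Prrx1 lies 60 bases inside the GENCODE gene, so the last 60 bases of its line belong to that gene model.
Prrx1, chr1:163313651-163313900, minus strand: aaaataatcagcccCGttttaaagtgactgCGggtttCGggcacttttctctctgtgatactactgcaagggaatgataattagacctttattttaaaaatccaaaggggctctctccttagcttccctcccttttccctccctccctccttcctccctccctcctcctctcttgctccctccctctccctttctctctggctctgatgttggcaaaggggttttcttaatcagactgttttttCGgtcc
Twist2, chr1:91801211-91801460, plus strand: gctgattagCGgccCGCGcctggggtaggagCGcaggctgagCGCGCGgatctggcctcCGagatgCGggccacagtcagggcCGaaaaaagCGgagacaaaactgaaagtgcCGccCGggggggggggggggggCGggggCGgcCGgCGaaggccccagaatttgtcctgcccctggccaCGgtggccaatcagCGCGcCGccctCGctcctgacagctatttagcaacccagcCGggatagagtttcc
Zeb2, chr2:45117443-45117692, minus strand: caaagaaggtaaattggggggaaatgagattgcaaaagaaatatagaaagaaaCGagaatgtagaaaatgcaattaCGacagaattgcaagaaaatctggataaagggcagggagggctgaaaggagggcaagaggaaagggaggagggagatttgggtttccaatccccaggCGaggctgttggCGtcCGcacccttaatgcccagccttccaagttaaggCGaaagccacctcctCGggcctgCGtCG
Twist1, chr12:33957421-33957670, plus strand: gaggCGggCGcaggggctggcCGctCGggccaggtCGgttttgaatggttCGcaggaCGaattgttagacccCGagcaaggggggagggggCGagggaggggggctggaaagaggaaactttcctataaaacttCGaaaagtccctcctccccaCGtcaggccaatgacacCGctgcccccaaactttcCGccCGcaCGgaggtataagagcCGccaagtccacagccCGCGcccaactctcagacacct
The factors that fell did not share a CpG content in these windows. The CpG count was 4 for Prrx1, 23 for Twist2, 9 for Zeb2 and 18 for Twist1, and the GC content was 47.6% for Prrx1, 68.8% for Twist2, 49.6% for Zeb2 and 62.4% for Twist1. Of 27018 promoters of the same length, 62.0% held at least as many CpG as Prrx1, 13.0% at least as many as Twist2, 40.8% at least as many as Zeb2 and 21.6% at least as many as Twist1. The E-box CANNTG, which reads the same on both strands, was searched as the core sequence that Zeb, Snail and Twist proteins bind. It was in none of the 4 printed windows and in 66.1% of all promoter windows. Snai1 held 1 such match among its 250 bases, of the form CAGGTG or CACCTG that is known for Zeb and Snail proteins and was found in 17.1% of all windows.

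MicroRNAs of the miR-200 family and miR-205 are shown because Zeb1 and Zeb2 are their textbook targets. Mature sequences are from RefSeq for GRCm38.p6, with the seed (bases 2 to 8) in capitals. miR-200b, miR-200c and miR-429 share 1 seed, miR-200a and miR-141 share another, and miR-205 has its own.
mmu-miR-200b-3p: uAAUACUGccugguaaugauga
mmu-miR-200c-3p: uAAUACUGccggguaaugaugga
mmu-miR-429-3p: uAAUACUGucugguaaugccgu
mmu-miR-200a-3p: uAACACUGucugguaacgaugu
mmu-miR-141-3p: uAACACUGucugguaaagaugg
mmu-miR-205-5p: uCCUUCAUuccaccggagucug
Sites were counted as exact matches of the transcript strand to CAGTATT (miR-200b, miR-200c and miR-429), CAGTGTT (miR-200a and miR-141) or ATGAAGG (miR-205), in the longest 3′ UTR of each gene in GENCODE M21. Zeb1 held 9 matches for the miR-200 family in 2401 bases and Zeb2 held 9 in 4941 bases, and each split into 5 for the first seed and 4 for the second. Snai2 held 2 family matches, and Snai1, Foxc2 and Grhl2 held 1 each. Prrx1, Twist1, Twist2 and Ovol1 held 0. Of 21007 genes with a 3′ UTR, 25.8% held any family match and 3 genes, Zeb1 and Zeb2 among them, held at least 9. For miR-205, Zeb1 held 1 match and Zeb2 held 0, where 11.1% of all genes held any. A match is a description of letters and not of binding.
The first 3 family matches of the Zeb2 3′ UTR are shown with the bases before them, the match in capitals, on the minus strand of GRCm38 chromosome 2.
chr2:44988357-44988378: gcaaaaattttgtaCAGTGTTa
chr2:44988173-44988194: gcactaccatacatCAGTATTt
chr2:44988108-44988129: gcactacagtgcatCAGTATTa
The libraries hold almost no reads on the microRNA genes themselves. The 5 genes of the miR-200 family together had 12 reads in BrM 2a libraries and 4 reads in parental libraries, and Mir205 had 0 reads in all 6 libraries, so none was tested. Counts on these genes in polyadenylated RNA do not measure mature microRNAs.

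Relatives of the factors outside the 10 did not all move with them. Of 10 listed relatives 7 were tested, with 2 rising, 2 falling and 3 not passing (median log2 fold change -0.51, against -0.05 over all tested genes, of which 12.2% were called higher and 15.8% lower). Snai3, the third Snail family gene, had 175, 248 and 269 scaled read counts in BrM 2a libraries, against 8.14, 24.7 and 32.1 in parental libraries. It was 11.5-fold higher in BrM 2a cells (limma adjusted p = 0.00462), while Snai2 fell. Prrx2, the paralogue of Prrx1, had 759, 497 and 491 scaled read counts in BrM 2a libraries, against 74.3, 269 and 47.2 in parental libraries. Prrx2 was 5.75-fold higher in BrM 2a cells (limma adjusted p = 0.0279), while Prrx1 fell. That call was lost without BrM 2a replicate 2 (adjusted p = 0.0722) or 3 (0.069), and without parental replicate 1 (0.0985) or 3 (0.0712), and without parental replicate 2 the difference was 9.48-fold. Foxc1, the forkhead paralogue of Foxc2, was 7.75-fold lower in BrM 2a cells (1163 ± 84.1 scaled read counts in BrM 2a and 9226 ± 2458 in parental cells, limma adjusted p = 0.000319). Foxq1, a forkhead factor known to induce EMT in mammary cells, was 9.59-fold lower (251 ± 76.2 scaled read counts in BrM 2a and 2385 ± 529 in parental cells, limma adjusted p = 0.000553). Ovol2, Grhl1 and Grhl3, the relatives of Ovol1 and Grhl2, did not pass. Without BrM 2a replicate 1 limma called 3 relatives higher, beside 2853 genes over the whole table (1691 as reported).

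Twist proteins bind E-boxes as dimers with E proteins, and Id proteins bind E proteins without binding DNA. Of 7 such genes 4 fell and 3 did not pass (median log2 fold change -2.17), where 15.8% of all tested genes were called lower. Among the E proteins, Tcf4 was 7.91-fold lower in BrM 2a cells, with 936, 1087 and 1180.0 scaled read counts in BrM 2a libraries against 10812, 10007 and 5499 in parental libraries (limma adjusted p = 0.00077). The E proteins Tcf3 and Tcf12 did not pass (limma log2 fold changes -0.40 and -0.53). The inhibitors Id1, Id3 and Id4 fell too, by 4.51-fold, 6.12-fold and 4.87-fold (limma adjusted p = 0.000565, 0.00175 and 0.00265). Id2 did not pass (limma log2 fold change 0.66). The genes that passed as lower were thus 1 E protein gene and 3 Id genes, but all 7 had an unadjusted limma p under 0.05. The libraries of both groups did not overlap for Tcf3 or Tcf12. Without BrM 2a replicate 1 limma called 6 of the 7 lower, beside 3612 of all tested genes (2190 as reported). The count stayed at 4 when any other library was left out. DESeq2 called 5 of the 7 lower, beside 2674 of all tested genes. The exons of Id4 overlap those of a gene on the other strand by 82 bases.

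Corepressors that Snail and Zeb proteins recruit were called about as often as tested genes at large. Among the 10 tested, 2 rose and 1 fell, with 7 not passing (median log2 fold change 0.14), where 28.1% of all tested genes were called in either direction. Kdm1a, the histone demethylase LSD1, was 1.52-fold higher (3241 ± 426 scaled read counts in BrM 2a and 2133 ± 196 in parental cells, limma adjusted p = 0.0259). Rcor1, its partner CoREST, was 1.72-fold higher (limma adjusted p = 0.0373), and Ctbp2, a corepressor that Zeb proteins bind, was 1.47-fold lower (limma adjusted p = 0.0195). Each of these 3 calls was lost when any library other than BrM 2a replicate 1 was left out. Ctbp2 shares 314 exonic bases with Fgfr2 on the same strand, so those reads are uncertain. Of 10 genes for the ubiquitination, deubiquitination and phosphorylation of Snail and Twist proteins, 0 passed in limma, 4 had an unadjusted p under 0.05, edgeR called 0 and DESeq2 called 4 (median log2 fold change -0.23). Of all 13821 tested genes limma called 3881, edgeR 3753 and DESeq2 5075. Their members of highest level were Gsk3b, the kinase that marks Snail for degradation (log2 fold change -0.34, limma adjusted p = 0.0562), and the ubiquitin ligase gene Fbxl5 (0.01, limma adjusted p = 0.97). Gsk3b passed without BrM 2a replicate 1 (limma adjusted p = 0.0263). Without that library limma called 3 of these genes lower (3612 over the whole table). Without parental replicate 1 it called 1 lower (1382 over the whole table), and without parental replicate 3 it called 1 higher (1214). With TMM scaling limma called 1 lower. Levels of the proteins were not measured.

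Transforming growth factor beta (TGF-beta) signalling is a known inducer of Snail, Zeb and Twist genes. Of its 12 genes 7 fell and 5 did not pass (median log2 fold change -0.68), beside 15.8% called lower over all tested genes. The coreceptor gene Tgfbr3 had 675, 71.7 and 79.2 scaled read counts in BrM 2a libraries, against 17757, 11541 and 10514 in parental libraries. It was 81.8-fold lower in BrM 2a cells (limma adjusted p = 0.003), and 169-fold lower without BrM 2a replicate 1, the highest library of its group. On recovered reads it was 48.7-fold lower in edgeR and 47.3-fold lower in DESeq2. The ligand gene Tgfb2 had 1149.9, 271 and 257 scaled read counts in BrM 2a libraries, against 4653, 5882 and 4998 in parental libraries. Tgfb2 was 11.9-fold lower in BrM 2a cells (limma adjusted p = 0.00569) and 19.5-fold lower without BrM 2a replicate 1. The receptor gene Tgfbr1 was 2.56-fold lower (limma adjusted p = 0.017), a call lost without BrM 2a replicate 2 (0.0599) or 3 (0.0565). Skil, a Smad corepressor that TGF-beta induces, was 2.29-fold lower (limma adjusted p = 0.0105). Ski and the ligand gene Tgfb3 were 1.40-fold and 1.82-fold lower (limma adjusted p = 0.0279 and 0.0341), and both calls were lost when any library other than BrM 2a replicate 1 was left out. The count of genes that fell in this list was 8 without BrM 2a replicate 1, 3 without BrM 2a replicate 2 or 3, and 4 without each parental library. Among all tested genes, 3612 fell without BrM 2a replicate 1, against 2190 as reported. That count was 1283 without BrM 2a replicate 2 and 1380 without BrM 2a replicate 3. It was 1382, 1241 and 1706 without parental replicates 1, 2 and 3, so calls at large moved in the same directions. The remaining gene of this list that fell was the ligand gene Tgfb1 (3.89-fold lower, limma adjusted p = 0.0355, chosen after its values were seen). Its call was lost when any library other than BrM 2a replicate 1 was left out. The transducers Smad2, Smad3 and Smad4, the inhibitor Smad7 and the receptor Tgfbr2 did not pass.

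Epithelial genes that Zeb and Snail proteins are known to repress, or that accompany them in epithelia, were called higher more often than lower. Among the 28 tested, 15 rose and 3 fell, with 10 not passing (median log2 fold change 0.67), beside 12.2% called higher and 15.8% called lower over all tested genes. Rab25, a small GTPase of epithelial recycling, had 4139, 4463 and 4342 scaled read counts in BrM 2a libraries, against 1148, 1051 and 1201 in parental libraries, 3.81-fold higher in BrM 2a cells (limma adjusted p = 0.000217). Ap1m2, the epithelial clathrin adaptor subunit, was 4.67-fold higher (3017 ± 76.4 scaled read counts in BrM 2a and 649 ± 80.1 in parental cells, limma adjusted p = 0.000241). The ETS factor gene Elf3 was 4.13-fold higher, the polarity gene Patj (listed as Inadl) 2.08-fold, the keratin gene Krt18 2.27-fold and the claudin gene Cldn3 2.14-fold, with limma adjusted p between 0.00108 and 0.00268. Cldn3 shares 40 exonic bases with a gene on the other strand. Cdh1 went against this direction and is given after its values were seen. It had 16604, 15273 and 15885 scaled read counts in BrM 2a libraries, against 24994, 26394 and 22773 in parental libraries, 1.55-fold lower in BrM 2a cells (limma adjusted p = 0.0113). That call was lost without BrM 2a replicate 2 (adjusted p = 0.0633) or 3 (0.0549) and without parental replicate 2 (0.0513). The junction and desmosome genes Tjp3 and Ppl, also chosen after their values were seen, were 4.53-fold and 1.61-fold lower. Without BrM 2a replicate 1 Tjp3 was 7.28-fold lower, and its call was lost when any other library was left out; that of Ppl was lost without BrM 2a replicate 2 (limma adjusted p = 0.0524). The count that fell was 5 without BrM 2a replicate 1, 0 without BrM 2a replicate 2, and 1 without BrM 2a replicate 3 or parental replicate 2, while the count that rose was between 13 and 16 when any library was left out. Without those libraries in turn, 3612, 1283, 1380 and 1241 genes fell over the whole table, against 2190 as reported. The whole-table count that rose was between 907 and 2853 when any library was left out.

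Of 30 mesenchymal genes 26 were tested, of which 17 fell and 9 did not pass (median log2 fold change -2.49), beside 15.8% of all tested genes called lower. Vim, the filament vimentin, had 2704, 2069 and 1966 scaled read counts in BrM 2a libraries, against 25962, 50883 and 35608 in parental libraries, 16.2-fold lower in BrM 2a cells (limma adjusted p = 0.000249). Pdgfrb, a receptor of mesenchymal cells, had 5 reads in BrM 2a libraries and 8249 in parental libraries (limma 1034-fold lower, 1551-fold without BrM 2a replicate 3, adjusted p = 0.000329). Its ratio of pooled reads was 1489 (exact 95% interval 638 to 4587, counting error only). Lox, which crosslinks collagen, had 10 reads in BrM 2a libraries and 10389 in parental libraries (limma 750.3-fold lower, adjusted p = 0.000154), a ratio of pooled reads of 938 (exact 95% interval 509.7 to 1956). Acta2, smooth muscle actin, had 9 reads in BrM 2a libraries and 6764 in parental libraries (limma 455-fold lower, adjusted p = 0.000156), a ratio of 678 (exact 95% interval 357 to 1484). All 3 genes were under 10 scaled read counts in each BrM 2a library and passed the filter through their parental levels. Their folds depend on the pseudocount, and with 10 they were 190.3-fold for Pdgfrb, 226-fold for Lox and 140.1-fold for Acta2. The collagen gene Col5a1 and the ligand gene Wnt5a were 25.6-fold and 21.3-fold lower (limma adjusted p = 0.0006 and 0.00105). Members that did not pass included Cdh11, S100a4, Tagln, Msn and Cd44, with limma log2 fold changes between -0.48 and 0.61. The count that fell was between 12 and 18 when any library was left out, and over the whole table it was between 1241 and 3612.

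**Figure D5:**
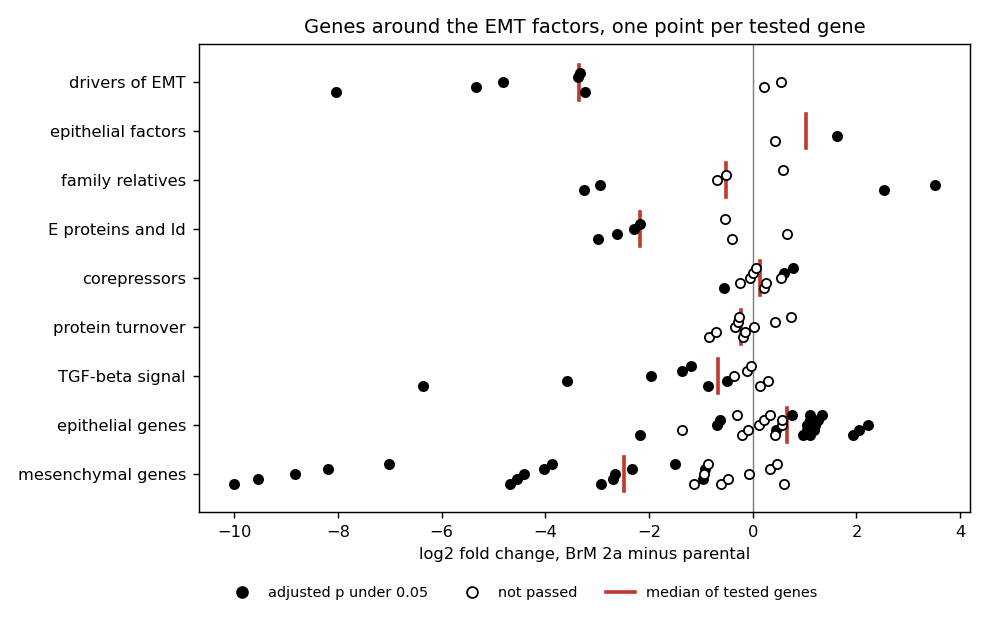
Log2 fold change, BrM 2a minus parental, of the tested genes of each list, with 1 point per gene, filled where the adjusted p was under 0.05, and a red bar at the list's median. Medians run from -3.34 for the drivers of EMT and -2.49 for mesenchymal genes to 0.67 for epithelial genes and 1.03 for the epithelial factors.

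Markers of other cell types differed between the groups for some types and not for others. Among all tested genes, 12.2% were called higher and 15.8% lower. Of 9 fibroblast and pericyte markers 4 passed the filter and 2 of these fell (Dcn and Pdgfrb). Both were under the filter's level of 10 in each BrM 2a library and reached it only through their parental levels. The other 2 tested, Col1a1 and Pdgfra, did not pass. Log2 fold changes of the 4 lay between -10.01 and -0.93, and Pdgfrb is also among the mesenchymal genes above. Summed scaled read counts of the 9 markers were 214 to 1017 in BrM 2a libraries and 1562 to 5754 in parental libraries. Dcn, the matrix proteoglycan decorin, was at 0 in all BrM 2a libraries and at 857, 374 and 232 scaled read counts in parental libraries. Lum was at 0 in all 6 libraries, Thy1 was at 0 in BrM 2a libraries and at most 1.65 scaled read counts in parental libraries, and Col3a1 was at most 1.22 in BrM 2a libraries and at most 41.2 in parental libraries. Leukocyte markers summed to 447 to 2994 in BrM 2a libraries and 217 to 596 in parental libraries, and 1 of 2 tested rose. That was Csf1r (268 ± 45.7 scaled read counts in BrM 2a and 7.52 ± 9.84 in parental cells, 49.1-fold higher, and 93.9-fold without parental replicate 3). Csf1r reached the filter only through its BrM 2a levels. The other tested marker, Cd68, did not pass (limma log2 fold change 0.74). The common leukocyte marker Ptprc was at most 4.88 in any library. Endothelial markers summed to 7.45 to 53.7 in BrM 2a and 27.4 to 38.7 in parental libraries, and the 1 tested did not pass. Brain markers summed to 2170.2 to 2252 in BrM 2a libraries and 979 to 1295 in parental libraries, almost all of it Mbp. Both tested brain markers rose (Gfap and Mbp), and Olig2 was at 0 in all libraries. The part of such cells in the differences of the EMT factors was not tested.

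For each called factor with a mean of at least 100, the 2 tested genes nearest to it in pattern were sought. Candidates were the 10848 other genes at or above that mean that remained after removal of predicted, clone and date-like symbols. Distance was the root-mean-square difference of log2(scaled read count + 1), centred per gene, over the 6 libraries. Nearest to Zeb1 were Arhgef10 (distance 0.15) and Rassf2 (0.17), and nearest to Zeb2 were Nr4a2 (0.13) and Sgsm1 (0.15). Nearest to Twist2 were St8sia6 (0.20) and Tspan17 (0.21). Nearest to Prrx1 were Svip (0.27) and Rerg (0.32), and nearest to Ovol1 were Rgs12 (0.10) and Sipa1l1 (0.11). Svip had 0 reads in BrM 2a libraries and 979 in parental libraries, at least 295-fold lower in BrM 2a cells when the group's 0 is set to a floor of 3 reads. Its nearness to Prrx1 thus depends on the pseudocount. With pseudocounts of 0.5, 1 and 10 the log2 fold change was -9.22, -8.23 and -4.95 for Svip, and -8.11, -8.04 and -7.23 for Prrx1. Rgs12, a regulator of G protein signalling, had 5119 ± 443 scaled read counts in BrM 2a cells and 1800.3 ± 321 in parental cells. The 6 points of each pattern come from the 2 groups compared here, and nearness in them is a description.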

How the data were processed

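RNA-seq of cultured MMTV-ErbB2 cells was taken from 3 BrM 2a and 3 parental libraries, and 5 human HCC1954 libraries were not analysed here. Per gene, the authors deposited a signal, the read count after their normalisation. The submitters' processing notes name STAR, HTSeq, GRCh38 and GRCm38; versions, roles and the scaling are not given in the sources used here. In each library 100% of values above 0 were whole multiples of 1 read within 0.01 read, so reads were recovered by division. Libraries are numbered as the table's columns; titles carry the numbers 1 and 2, and the third has none.

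Genes with a mean of at least 10 over 6 libraries, 13821 of 24062, were tested by limma 3.58.1 (R 4.3.3) with an intensity trend on log2(value + 1), two-sided, with Benjamini-Hochberg adjustment over all tested genes and a threshold of 0.05; it called 3881. Such fold changes understate those of low genes. On recovered reads, edgeR 4.0.16 called 3753 genes and DESeq2 1.42.0 called 5075. Ratios of pooled reads have exact 95% intervals, which cover counting error only. Paralogue ratios used exact permutation in SciPy 1.17.1. Gene positions, exon lengths and 3′ UTRs are from GENCODE M21 on GRCm38, and promoters and microRNAs from RefSeq. Methods were tested on simulated data.

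Named genes were all 10 factors, up to 6 called members of smallest p per list or the 2 of highest mean where none was called, and the 2 genes nearest to each called factor with a mean of at least 100. The factors, gene lists and tests were chosen with earlier results of these data known. Alternatives were other pseudocounts, filters, scalings and moderation, edgeR, DESeq2, a replicate block and leaving out each library. Figures were drawn with matplotlib 3.10.9.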

Additional observations from a re-analysis of the deposited data

How the results depend on the processing

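Over 17 alternatives, between 6 and 8 of the 10 factors were called, against 7 as reported. Zeb1, Zeb2, Snai2, Twist2 and Prrx1 were called lower under all 17, Ovol1 was called higher under all but the replicate block, and Twist1 was never called. Foxc2 had adjusted p between 0.00494 and 0.0487 under the 15 alternatives that tested it; a mean of at least 50 and leaving out parental replicate 1 removed it through the filter. Leaving out BrM 2a replicate 1 turned the log2 fold changes of Snai1 to -0.24 and of Fbxl5 to -0.24, and leaving out parental replicate 2 turned that of Fbxl5 to -0.05; the cause was not tested. Over all 6 libraries left out, these went from -0.24 to 0.44 for Snai1 and from -0.24 to 0.15 for Fbxl5. The count of genes called, 3881 as reported, went from 2190 (without BrM 2a replicate 2) to 6465 (without BrM 2a replicate 1) when each library was left out, and was 2313 without BrM 2a replicate 3, 2488, 2212 and 2920.0 without parental replicates 1, 2 and 3. A replicate block over libraries with shared numbers 1 and 2 gave 2007 genes and 6 factors, with an adjusted p of 0.0699 for Ovol1. Deviations of same-numbered libraries correlated at 0.30, -0.09 and 0.33 for replicates 1, 2 and 3. Those of differently numbered libraries correlated between -0.34 and 0.31, and the numbers were not taken to pair the libraries. Of 865 values of the 51 named genes over the alternatives, 816 kept their direction and their side of the threshold, 43 calls of 9 genes were lost, 3 calls of 2 genes (Grhl2 and Gsk3b) were gained and 3 reversed. The 3 paralogue ratios kept their direction under the 8 alternatives run for each. Foxc2 rests on 3 reads in BrM 2a libraries, and no microRNA gene reached the filter.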
